A study of Homo sapiens with 13 samples.

Results

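NOTCH1, MYC and 8 genes around them were followed across FK866-sensitive and FK866-resistant T cell leukemia cells. The members are the receptors NOTCH1 and NOTCH3, the Notch target genes HES1, HES4, HEY1, DTX1, NRARP, PTCRA and MYC, and FBXW7, which marks Notch and MYC proteins for degradation. They are 10 of the 25940 gene names on the array and were taken by name, with every probe that is not a control. This gave 13 probes of 34127. Of these, 9 probes of 8 genes were kept, meaning that in 1 group or more all arrays read them well above background, and the probes of HEY1 and DTX1 were not. All 10 names are current symbols of the RefSeq gene table.

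The study asked how leukemia cells answer the NAMPT inhibitor FK866 before and after they have become resistant to it. CCRF-CEM is an established human T cell acute lymphoblastic leukemia line, used as parental cells (CEM PA) and as a population (CEM RES) selected with rising doses of the drug, of which cells resistant to 100 nM were used. Whether CEM RES is 1 clone is not stated in the sources used here. RNA was taken after 48 h with DMSO (mock) or 5 nM FK866 and hybridized to 13 1-colour Agilent arrays. Mock-treated CEM PA had 3 arrays, FK866-treated CEM PA 2, mock-treated CEM RES 4 and FK866-treated CEM RES 4. CEM RES were kept under FK866 between experiments, so mock-treated CEM RES differ from mock-treated CEM PA in drug history as well as in resistance. The labels call the replicates biological but do not say which cultures they came from, so p values measure the spread between these samples.

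Notch receptors sit on the cell surface. When a neighbouring cell presents a ligand, or when the receptor is mutated so that it no longer needs one, gamma-secretase releases the intracellular part, which enters the nucleus and joins RBPJ and a MAML coactivator on target genes. HES1, HES4 and HEY1 encode repressors that this complex turns on, DTX1 and NRARP encode regulators of the pathway itself, and PTCRA encodes the pre-T cell receptor alpha chain. Activating NOTCH1 mutations are common in T cell leukemia, where MYC is a major target, and FBXW7 is often mutated in the same disease.

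The complex recognizes a core of 6 bases, TGGGAA, in promoter DNA. RefSeq promoter windows (GRCh38.p14, 250 bases before to 50 after the start site) were at hand for 7 of the members. Of these only HES1 and HES4 hold TGGGAA on either strand, against 24.0% of all 35116 windows. The 100 bases before each start site are shown because they show how alike the core sits in both genes. Capitals mark TGGGAA, HES1 lies on the plus strand at chr3:194136048-194136147 and HES4 on the minus strand at chr1:1000098-1000197.
HES1: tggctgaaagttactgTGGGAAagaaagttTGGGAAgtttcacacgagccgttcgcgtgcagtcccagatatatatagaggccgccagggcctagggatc
HES4: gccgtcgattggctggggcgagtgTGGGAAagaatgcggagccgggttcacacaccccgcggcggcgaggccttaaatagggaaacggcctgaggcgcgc
HES1 has the core at -84 and -70 from its start site, and a repeated core is found in 3.80% of windows. HES4 has it at -76. The longest run shared by these stretches is 12 bases, tgTGGGAAagaa, and spans the core of HES4 and the upstream core of HES1. The MYC and MAX recognition site CACGTG, which reads the same on both strands, occurs in 7.26% of windows and in 0 of the members' windows. Only exact matches were sought, so variants of either site were not counted. Such matches describe letters and do not show binding.

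Some probes read different parts of the same transcript, and 3 that lie in coding sequence are shown because 2 of them read differently from a companion probe. Positions are those of the array files (hg19). The NOTCH1 probe A_33_P3370424, on the minus strand at chr9:139390523-139390582, ends on the stop codon, which is in capitals. The HES1 probe A_23_P6596 covers chr3:193854276-193854463 with an intron in between. The NRARP probe A_33_P3337267 lies on the minus strand at chr9:140196239-140196298.
NOTCH1 A_33_P3370424: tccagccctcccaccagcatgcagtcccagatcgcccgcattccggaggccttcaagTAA
HES1 A_23_P6596: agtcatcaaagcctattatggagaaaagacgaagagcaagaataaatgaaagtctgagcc
NRARP A_33_P3337267: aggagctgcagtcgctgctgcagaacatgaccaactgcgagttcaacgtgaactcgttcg
The other NOTCH1 probe, A_23_P60387, lies past the coding sequence toward the 3′ end of the transcript at chr9:139389764-139389823, and was printed on the array in 10 spots.

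Values below are log2 signals after quantile normalization over the 13 arrays, differences are log2 differences with their standard error (SE), and adjusted p values come from limma over 22751 kept probes. A call is an adjusted p under 0.05. Of 43118 spots per array that were not controls, 26457 to 33239 were well above background, and arrays give no counts, so their number limits the precision. T cell genes were detected. All 11 T lineage markers were kept and CD3D, the CD3 delta chain, averaged 16.82 without drug in CEM PA and 16.93 in CEM RES. None of 6 epithelial or stromal markers was kept, and of the myeloid list only CD14 was. Of the B lineage list 4 of 5 were kept, so being kept does not by itself tell the lineages apart. Between mock-treated lines 2 of 11 T lineage markers were called higher in CEM RES (18.2%) and 1 lower (9.09%). Of the 4 B lineage markers 0 were called higher and 2 lower. Over all probes 24.9% were called higher and 22.7% lower. CEM PA were scanned in sessions apart from the one that held all CEM RES, so line and scan session cannot be told apart.

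PTCRA, HES1, NRARP and FBXW7 were lower in CEM RES with and without drug, while HES4 and NOTCH3 were called lower and MYC higher in mock-treated cells. Between the mock-treated lines 6 of the 9 kept probes were lower in CEM RES (PTCRA, HES4, FBXW7, HES1, NOTCH3 and NRARP), where 22.7% of all probes were. MYC was higher, as were 24.9% of all probes. The groups did not overlap for 8 of the 9, against 48.8% of all probes. Under FK866, 4 were lower (PTCRA, FBXW7, HES1 and NRARP) against 18.0% of all probes, and 0 were higher against 18.0%. The groups then did not overlap for 5 of the 9, against 57.8% of all probes. The lines differed at many probes, and the members' counts are to be read against these shares. In bulk RNA, fewer cells with a transcript and less of it per cell cannot be told apart.

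**Figure D1:**
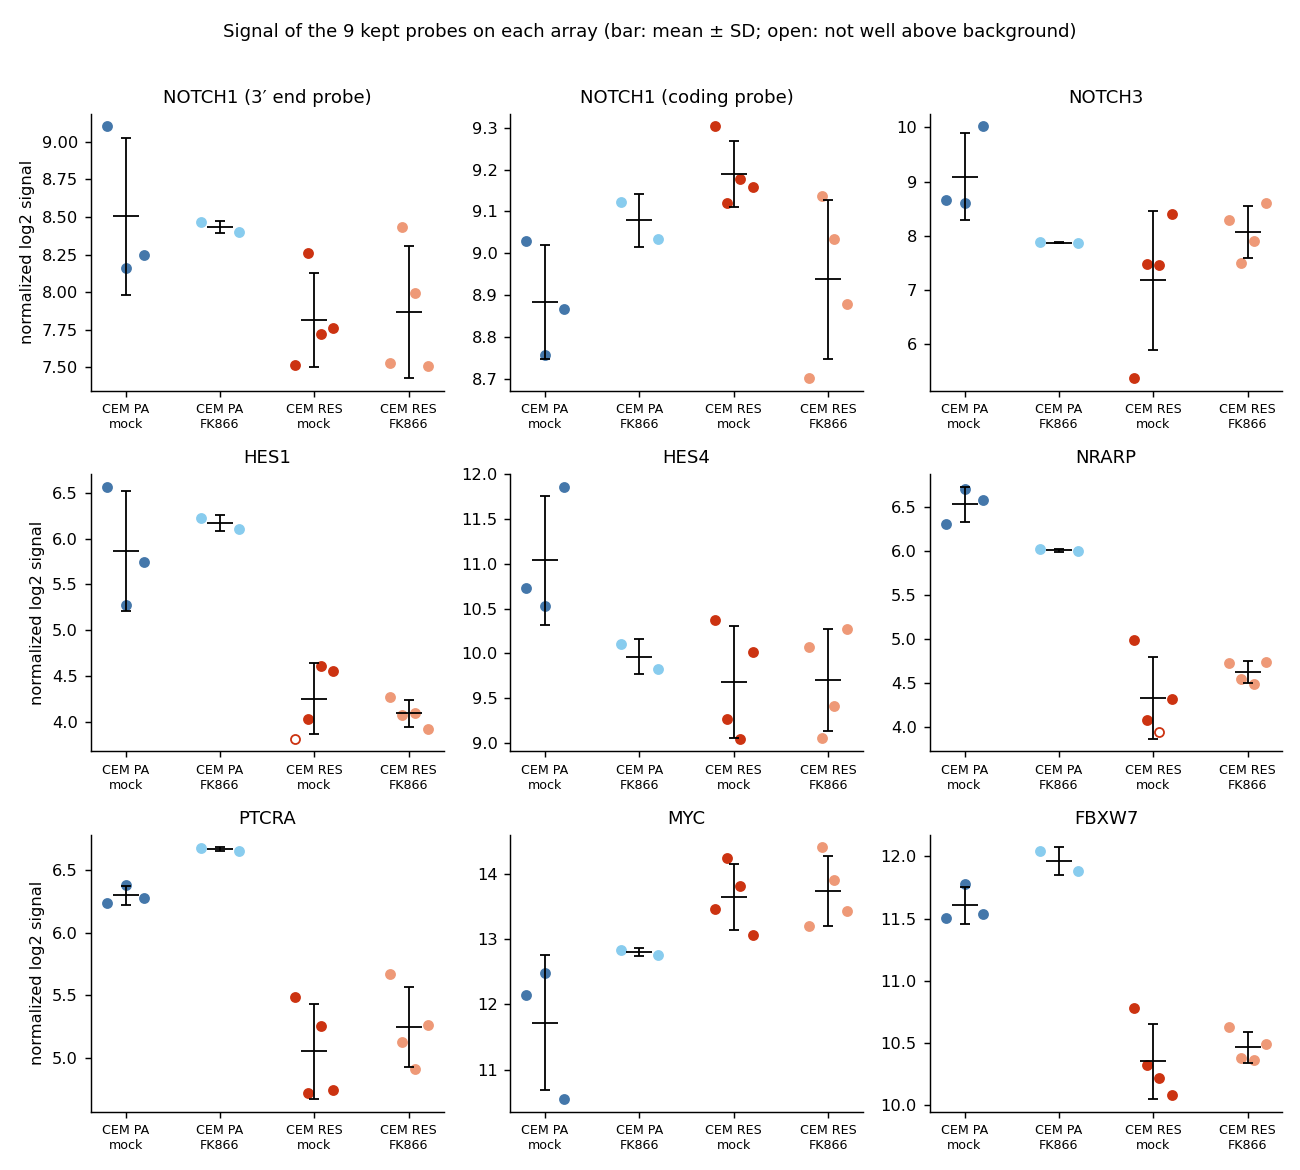
Normalized log2 signal (vertical axis) of the 9 kept probes on each of the 13 arrays, by group; points are arrays in replicate order, bars are the mean ± SD and open points were not well above background. HES1, NRARP, PTCRA and FBXW7 sit lower on every CEM RES array than on any CEM PA array, and MYC sits higher.

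**Figure D2:**
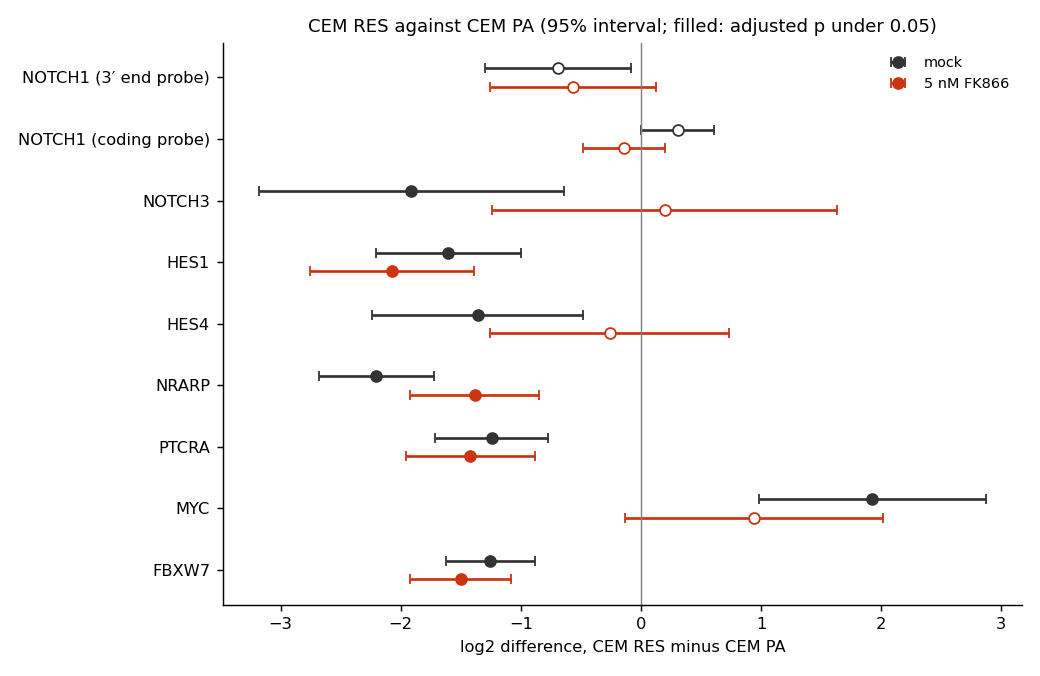
Log2 difference between CEM RES and CEM PA (horizontal axis) for each kept probe, in mock-treated cells (black) and under 5 nM FK866 (red), with 95% intervals; filled points have an adjusted p under 0.05. The differences of HES1, NRARP, PTCRA and FBXW7 are called in both conditions, and those of NOTCH3, HES4 and MYC are called in mock-treated cells.

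NOTCH1, the receptor most often mutated in this leukemia, gave no clear difference. Its 3′ end probe read 9.10, 8.16 and 8.25 in mock-treated CEM PA against 7.52, 8.26, 7.72 and 7.76 in mock-treated CEM RES. It read 8.46 and 8.40 in FK866-treated CEM PA and 7.53, 8.43, 8.0 and 7.51 in FK866-treated CEM RES. CEM RES replicate 2 reached the parental range in both conditions, so the groups overlapped. The mock-treated lines differed by -0.69 (SE 0.28, adjusted p = 0.0604), and the FK866-treated lines by -0.57 (SE 0.32, adjusted p = 0.185). Over the 10 spots of this probe the SD within an array was between 0.0435 and 0.147, which measures spot noise alone. The SD between arrays was 0.315 to 0.522 in 3 of the groups and 0.0431 over the 2 arrays of FK866-treated CEM PA.

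The coding NOTCH1 probe went the other way in mock-treated cells. Mock-treated CEM PA read 9.03, 8.76 and 8.87 and mock-treated CEM RES 9.30, 9.12, 9.18 and 9.16, without overlap, a difference of 0.31 (SE 0.14, adjusted p = 0.0885). In FK866-treated cells it read 9.12 and 9.03 in CEM PA against 8.70, 9.14, 9.04 and 8.88 in CEM RES, a difference of -0.14 (SE 0.16, adjusted p = 0.517). With the mean of both probes in place of each, the difference between mock-treated lines was -0.19 (adjusted p = 0.435). The direction for NOTCH1 RNA thus depends on the probe. By group mean, the coding probe ran from mock-treated CEM PA (8.88) through FK866-treated CEM RES (8.94) and FK866-treated CEM PA (9.08) to mock-treated CEM RES (9.19), and none of the tested steps between these groups was called.

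NOTCH3, a second receptor and itself a known target of NOTCH1, fell between the mock-treated lines. It read 8.65, 8.60 and 10.02 in mock-treated CEM PA against 5.38, 7.49, 7.47 and 8.40 in mock-treated CEM RES. All CEM RES arrays were lower, though the nearest arrays were 8.60 and 8.40, a narrow gap. CEM RES replicate 1 was far below the others. That array had 773 outlier spots, against 195 to 344 on the other arrays, and the widest spread between spots for NOTCH1 and MYC. The difference was -1.91 (SE 0.58, adjusted p = 0.0173), a fold of 3.76. Without CEM PA replicate 3, the highest array, it was -1.44 (adjusted p = 0.0853). The low array of CEM RES also enters its mean, which was 7.18 where the median was 7.48. In CEM PA the mean was 9.09 and the median 8.65. Over all alternatives the difference was between -2.32 and -1.23. Under FK866 CEM PA read 7.88 and 7.87 and CEM RES 8.29, 7.49, 7.90 and 8.60, which overlap, with a difference of 0.20 (SE 0.66, adjusted p = 0.841).

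HES1, the archetypal Notch-induced repressor, was lower in CEM RES in both conditions. Its signal was 6.56, 5.27 and 5.74 in mock-treated CEM PA against 3.82, 4.04, 4.61 and 4.56 in mock-treated CEM RES, of which 3 of 4 were well above background. FK866-treated CEM PA read 6.23 and 6.11, and FK866-treated CEM RES 4.28, 4.08, 4.10 and 3.93. Every CEM RES array was under every CEM PA array. The differences were -1.60 (SE 0.28, adjusted p = 0.000609) and -2.07 (SE 0.31, adjusted p = 0.00045), folds of 3.04 and 4.20.

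HES4, whose upstream sequence shares the core with HES1, was called between the lines in mock-treated cells and not under FK866, and the difference between these comparisons was not called (1.10, adjusted p = 0.504). Mock-treated CEM PA read 10.72, 10.53 and 11.86 and mock-treated CEM RES 10.38, 9.26, 9.05 and 10.02. The nearest arrays were 10.53 and 10.38, so the gap was narrow, and the difference was -1.36 (SE 0.40, adjusted p = 0.0153). Without CEM PA replicate 3 it was -0.94 (adjusted p = 0.0801). FK866-treated CEM PA (10.10 and 9.82) lay within the range of FK866-treated CEM RES (10.07, 9.06, 9.41 and 10.27), and the difference was -0.26 (95% interval -1.26 to 0.74, adjusted p = 0.691).

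NRARP, an ankyrin protein that dampens Notch signaling, was lower in CEM RES in both conditions. The kept probe read 6.31, 6.70 and 6.59 in mock-treated CEM PA against 4.99, 4.08, 3.94 and 4.31 in mock-treated CEM RES, with 3 of 4 well above background. The difference was -2.20 (SE 0.22, adjusted p = 1.45e-05), a fold of 4.61. With FK866 the signals were 6.02 and 6.0 in CEM PA against 4.72, 4.54, 4.49 and 4.74 in CEM RES, a difference of -1.39 (SE 0.25, adjusted p = 0.00129). The coding probe shown above was well above background on 0 of 13 arrays, with signals between 0.99 and 1.98, so NRARP rests on its 3′ probe.

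PTCRA, which pairs with the T cell receptor beta chain in immature T cells, fell in the same way. It read 6.24, 6.38 and 6.27 in mock-treated CEM PA against 5.49, 4.72, 5.26 and 4.75 in mock-treated CEM RES. FK866-treated CEM PA read 6.67 and 6.65 and FK866-treated CEM RES 5.67, 5.13, 4.91 and 5.26. The groups did not overlap in either condition, with differences of -1.24 (SE 0.22, adjusted p = 0.000641) and -1.42 (SE 0.25, adjusted p = 0.00102).

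The signals of HES1, NRARP and PTCRA were low, and the size of their differences depended on how background was handled. The normexp setting also adds an offset of 50 to each intensity, which by itself shrinks log2 differences of low signals. With normexp correction the mock-treated lines differed by -0.56 for HES1 (adjusted p = 0.00227), by -0.77 for NRARP (adjusted p = 0.000137) and by -0.45 for PTCRA (adjusted p = 0.00341). The FK866-treated lines then differed by -0.73 for HES1 (adjusted p = 0.00148), by -0.52 for NRARP (adjusted p = 0.00642) and by -0.66 for PTCRA (adjusted p = 0.00101). With 75th percentile scaling NRARP under FK866 was -0.93 (adjusted p = 0.0484). The direction and the calls held under normexp, and the folds shrank.

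HEY1, a repressor related to the HES genes, was not well above background on any array, with 0 of 13. DTX1, which encodes a ubiquitin ligase of the pathway, was well above background on 1 of 13 arrays, mock-treated CEM RES replicate 3, at 6.89. On the other arrays its signal lay between 0.92 and 3.23. No difference was tested for HEY1 or DTX1.

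MYC, the transcription factor that drives ribosome and nucleotide synthesis, was the member that rose. Its 3′ probe read 12.14, 12.48 and 10.55 in mock-treated CEM PA against 13.47, 14.25, 13.81 and 13.07 in mock-treated CEM RES. The gap between the groups was clear, and CEM PA replicate 3 stood lowest. The difference was 1.93 (SE 0.44, adjusted p = 0.00326), a fold of 3.81, and without that replicate it was 1.34 (adjusted p = 0.0116). In FK866-treated cells MYC read 12.84 and 12.76 in CEM PA against 13.21, 14.41, 13.91 and 13.44 in CEM RES, higher without overlap but not called (0.94, SE 0.49, adjusted p = 0.155).

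By group mean MYC ran from mock-treated CEM PA (11.72) through FK866-treated CEM PA (12.80) and mock-treated CEM RES (13.65) to FK866-treated CEM RES (13.74). Neither FK866 step was called, and FK866-treated CEM PA were not compared with mock-treated CEM RES. The SD over its 10 spots within an array was 0.0366 to 0.217. Against the CEM PA mock array of the first scan session the CEM RES mock mean was higher by 1.51, and against the 2 of the other session by 2.14. A MYC probe for transcripts from the far upstream promoter, A_33_P3245163, was well above background on 7 of 13 arrays and was not kept.

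MYC and HES4 ran opposite to each other over the arrays (Pearson r = -0.923), the most negative correlation among the kept member probes. MYC was also negatively correlated with NRARP (r = -0.817), HES1 (-0.702), PTCRA (-0.686), FBXW7 (-0.668), NOTCH3 (-0.666) and the 3′ NOTCH1 probe (-0.308). With the coding NOTCH1 probe r was 0.428. These values hold the difference between the lines within them. In CEM RES, replicates 2 and 3 had the highest MYC and the lowest HES4 in both conditions. In mock-treated CEM PA, replicate 3 had the lowest MYC (10.55) and the highest HES4 (11.86) of all 13 arrays. Whether these arrays differ in cell state or in preparation was not tested.

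**Figure D3:**
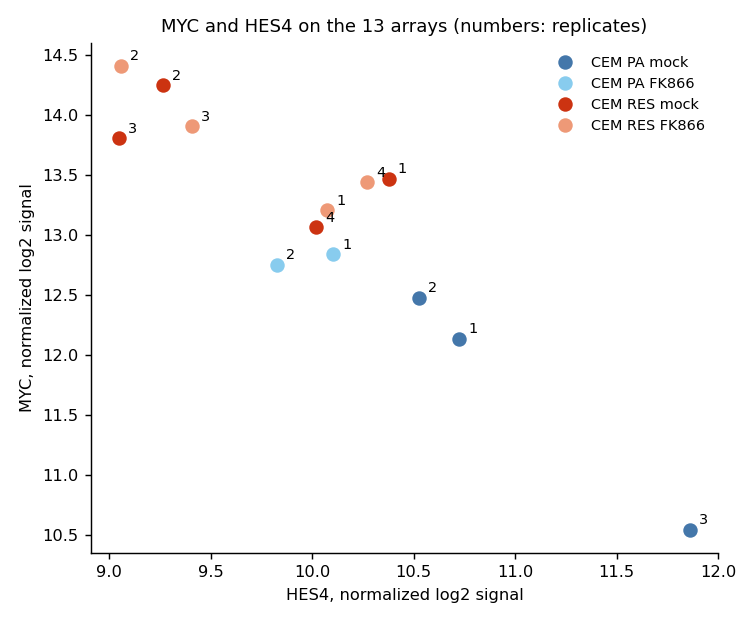
Normalized log2 signal of MYC (vertical axis) against HES4 (horizontal axis) on the 13 arrays, coloured by group and numbered by replicate. Arrays with more MYC mostly have less HES4, and mock-treated CEM PA replicate 3 lies at the far lower right.

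FBXW7, the substrate receptor of an SCF ubiquitin ligase that targets Notch receptors, MYC and cyclin E, was lower in CEM RES with little spread. It read 11.51, 11.78 and 11.53 in mock-treated CEM PA against 10.78, 10.33, 10.22 and 10.08 in mock-treated CEM RES. FK866-treated CEM PA read 12.04 and 11.89, and FK866-treated CEM RES 10.63, 10.38, 10.36 and 10.49. No array of either line reached the other line's range. The differences were -1.25 (SE 0.17, adjusted p = 0.00012) and -1.50 (SE 0.19, adjusted p = 0.000166), folds of 2.39 and 2.83. Under the 14 alternatives that kept every array the difference between mock-treated lines stayed between -1.44 and -1.19.

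No member was called for FK866 by adjusted p in either line. In CEM PA, 0 of the 9 probes passed the adjusted threshold, as did 1.53% of all probes. HES4 was the only member with an unadjusted limma p under 0.05, which 14.4% of all probes had, and the only member past the study's double threshold of an unadjusted p under 0.05 and an absolute log2 difference over 0.75, which 6.69% of all probes passed. It was lower by 1.07 on the log2 scale (95% interval of the difference -2.12 to -0.02, adjusted p = 0.337 in limma). The mock and FK866 arrays of CEM PA did not overlap for 7 of the 9 member probes, against 34.8% of all probes, with only 2 FK866 arrays. Among them MYC differed by 1.08 (adjusted p = 0.377), NOTCH3 by -1.22 (adjusted p = 0.47) and NRARP by -0.52 (adjusted p = 0.396). Without CEM PA mock replicate 3 these differences were 0.49 for MYC, -0.75 for NOTCH3 and -0.49 for NRARP. HES4 was then at -0.66, in size under the limit of 0.75.

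Within the 2 scan sessions of CEM PA, FK866 minus mock was 0.70 and 1.24 for MYC, and -0.62 and -1.37 for HES4. The first session held 1 FK866 and 1 mock array, the second 1 FK866 array and mock replicates 2 and 3. In the second, MYC read 12.76 with FK866 against 12.48 and 10.55 in these mock replicates. HES4 read 9.82 with FK866 against 10.53 and 11.86. For NOTCH1's 3′ probe FK866 minus mock was -0.64 and 0.20, so the sign changed between sessions. HES1 also changed sign, at -0.34 and 0.60.

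In CEM RES no member was called for FK866 by any rule. None of the 9 passed the adjusted threshold, which 0% of all probes did, none had an unadjusted limma p under 0.05 (5.15% of all probes), and none passed the double threshold (1.30% of all probes). The mock and FK866 arrays overlapped for all 9 member probes, while 2.91% of all probes did not overlap. The intervals still allow moderate changes. MYC differed by 0.09 with a 95% interval of -0.78 to 0.97, FBXW7 by 0.11 with an interval of -0.23 to 0.46, and NOTCH3 by 0.89 with an interval of -0.29 to 2.06. Mock and FK866 arrays of CEM RES with the same replicate number deviated together, and with that pairing in the fit no member was called.

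**Figure D4:**
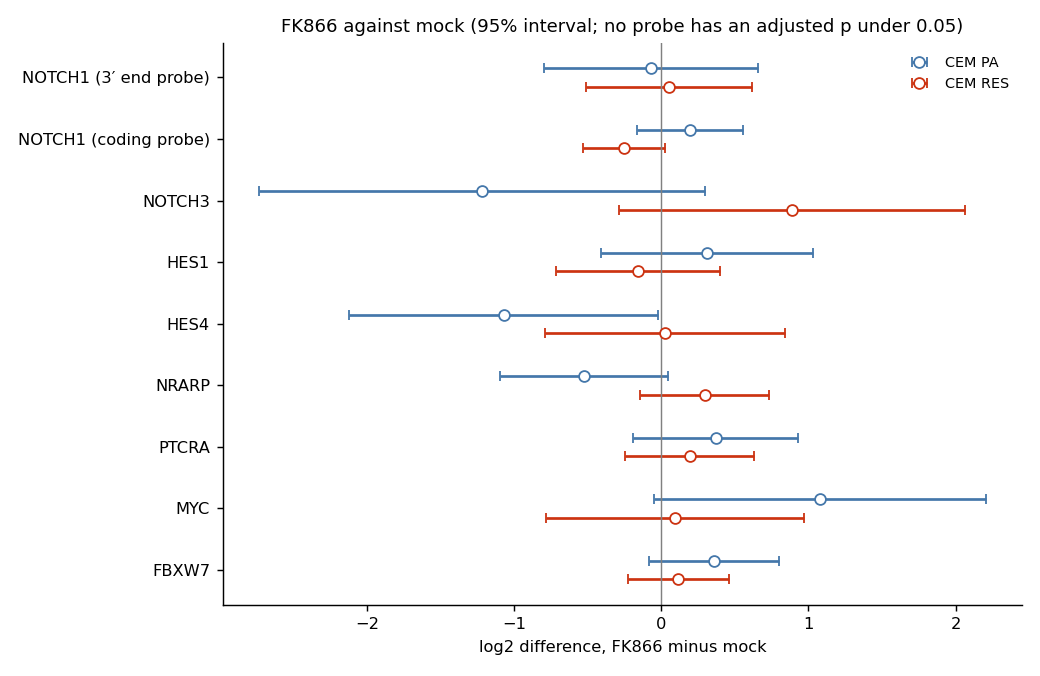
Log2 difference between FK866 and mock (horizontal axis) for each kept probe in CEM PA (blue) and CEM RES (red), with 95% intervals; no probe has an adjusted p under 0.05. The interval of HES4 in CEM PA excludes 0 before adjustment, and those of CEM RES all include it.

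The difference between the responses of the lines was called for 0 of the 9 member probes and for 0.413% of all probes. NOTCH3 (2.11, SE 0.88, adjusted p = 0.36) and NRARP (0.82, SE 0.33, adjusted p = 0.351) had the smallest p values, with FK866 signals below mock in CEM PA and above it in CEM RES. For NOTCH3 in CEM RES, FK866 minus mock was 1.62 on the slide that held mock replicate 1 (5.38). It was 0.16 on the other slide. In CEM PA it was -1.22, or -0.75 without mock replicate 3. Over all alternatives the NOTCH3 difference in response was between 1.44 and 2.52 and was not called. The comparisons of FK866 in each line and of the mock-treated lines use the same mock arrays.

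The rest of the pathway was read from lists, each gene by its kept probe with the highest mean signal. The counts for mock-treated lines are to be read against the 24.9% of all probes called higher in CEM RES and the 22.7% called lower. Among other receptors and ligands, 1 of 4 tested genes was lower in mock-treated CEM RES and 0 higher. It was JAG2, a Notch ligand, at 7.68 ± 0.18 (SD, n = 3) in CEM PA and 3.28 ± 0.94 (SD, n = 4) in CEM RES, where 1 of 4 arrays was well above background. With CEM RES arrays raised to their lowest signal well above background, JAG2 was 14.5-fold lower (adjusted p = 7.47e-05 in limma on the measured values). This is not a strict bound, as a probe can read above that signal without being well above background. NRARP did so on mock-treated CEM RES replicate 3, at 3.94 where the lowest signal well above background was 3.63. Without CEM RES mock replicate 1 or with normexp background correction, 2 genes of this list were lower, and with a filter on all arrays, which leaves JAG2 untested, 0 were. NOTCH2 (-0.35, adjusted p = 0.135), DLL1 and NOTCH4 were not called.

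Of the genes for Notch processing and modification, 3 of 19 tested were higher (15.8%) and 8 lower (42.1%), with a list median of -0.33 against 0.04 over all probes. PSENEN, a subunit of gamma-secretase, was higher by 2.11 (adjusted p = 6.02e-06). ITCH, a ubiquitin ligase for Notch, was lower by a log2 difference of -1.89, and the Numb relative NUMBL by -1.35. FURIN, the protease that cleaves the receptor precursor, was 2.09-fold lower with arrays raised as for JAG2. It was well above background on 1 of 4 CEM RES mock arrays. The fringe glycosyltransferases LFNG (-1.48) and RFNG (-0.92) were also lower, and a second kept LFNG probe read 0.17 (adjusted p = 0.642).

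Of 16 tested genes of the transcription complex and its corepressors, 5 were higher and 5 lower, 31.2% each, which is near the shares over all probes. RBPJ, the DNA-binding partner of Notch, fell by 1.31 on the log2 scale (adjusted p = 0.00465), and CIR1, a corepressor that binds it, by 1.18. The acetyltransferase EP300 rose by 2.08, the corepressors CTBP2 by 0.90 and TLE1 by 0.82, and the coactivator MAML3 by 0.85. MAML3 was well above background on 2 of 3 CEM PA mock arrays. With these arrays raised as for JAG2 it was higher by 0.68. Second probes of TLE1, CTBP2 and MAML3 read less. The other 2 of TLE1 gave -0.09 and 0.08, those of CTBP2 0.44 (adjusted p = 0.123) and 0.16 (adjusted p = 0.696), and that of MAML3 0.46 (adjusted p = 0.322). Of genes not called on their brightest probe, MAML1 had another called at -0.75, SPEN 1 at 2.81, and TLE4 had 1 called at -1.34 and 1 at 1.52. Without CEM PA mock replicate 1 only 2 genes of this list were higher.

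Other Notch targets did not move as a block. Of 17 tested, 3 were higher (17.6%) and 6 lower (35.3%), with a median of -0.51. Under FK866, 5 were higher and 6 lower. IL7R, the interleukin-7 receptor, was higher in mock-treated CEM RES by 2.82 (SE 0.36, adjusted p = 8.38e-05), whereas HES6 (-2.71), CD44 (-1.73), the transcription factors RUNX3 (-1.55) and LEF1 (-1.11) were lower. HES5 was higher by 1.12 from a low signal, with 2 of 3 CEM PA mock arrays well above background, and by 0.24 with CEM PA raised to the lowest signal well above background. All 4 kept HES6 probes were called lower. BCL2 depended on the probe, at -0.43 on its brightest probe and 0.67 on another, which was called higher (adjusted p = 0.00788 in limma).

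Of 25 tested genes that MYC is known to activate, 13 rose (52.0%, against 24.9% of all probes) and 1 fell (4.0%, against 22.7%) between the mock-treated lines. The list median was 0.75, against 0.04 over all probes. The nucleolar protein gene NOLC1 rose by 2.60 (SE 0.22, adjusted p = 4.65e-06), the nucleoside kinase gene NME1 by 1.94, SRM for spermidine synthase by 1.60, the chaperone gene FKBP4 by 1.51, and the nucleolar genes MYBBP1A and NOP16 by 1.37 and 1.36. TERT, the catalytic subunit of telomerase, was the 1 that fell, by 0.79 on the log2 scale (adjusted p = 0.0246). It was not called without CEM PA mock replicate 2 or 3 or CEM RES mock replicate 2 or 3. Without CEM PA mock replicate 3 the list had 12 higher genes. Under FK866, 8 were higher and 0 lower, or 32.0% against 18.0% of all probes. This number fell to 4 with 75th percentile scaling or no filter on dim probes, and to 5 with only the groups compared or with scan session as a block. It was 3 with either FK866 array of CEM PA left out and 4 without FK866-treated CEM RES replicate 2 or 3.

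Among the partners and antagonists of MYC, 1 of 15 tested genes was higher (6.67%) and 4 were lower (26.7%, near the share over all probes) in mock-treated CEM RES. The antagonists MXD1 (-1.20), MXD4 (-1.14) and MXD3 (-0.75) and the partner ZBTB17 (-0.65) were lower, and MLX was higher by 1.02. A second kept probe of MXD1 read 1.09 (adjusted p = 0.0632) and one of MXD3 0.20, so these rest on the brighter probe. The antagonist MXI1 was not called on its brightest probe (0.12), but its other 2 kept probes were called higher, at 1.39 (adjusted p = 0.0098) and 1.15 (adjusted p = 0.00395). MYCL1, a MYC relative, read 0.75 on its brightest probe, which was not called, and -2.27 on the other (adjusted p = 0.000779). With the mean of each gene's probes, 2 genes were higher and 2 lower. Without CEM RES mock replicate 3, 3 genes of this list were higher. MAX, the obligate partner of MYC, differed by -0.14 and was not called.

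Of 11 tested genes for the SCF ligase and FBXW7 substrates, 4 were lower (36.4%, against 22.7% of all probes) and 0 higher, with a median of -0.16. They were KLF5 (-1.37), JUN (-1.33), SREBF1 (-1.14) and CCNE1 (-0.87), which encode proteins that FBXW7 targets. A second SREBF1 probe read 1.02 (adjusted p = 0.00137), against the first.

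**Figure D5:**
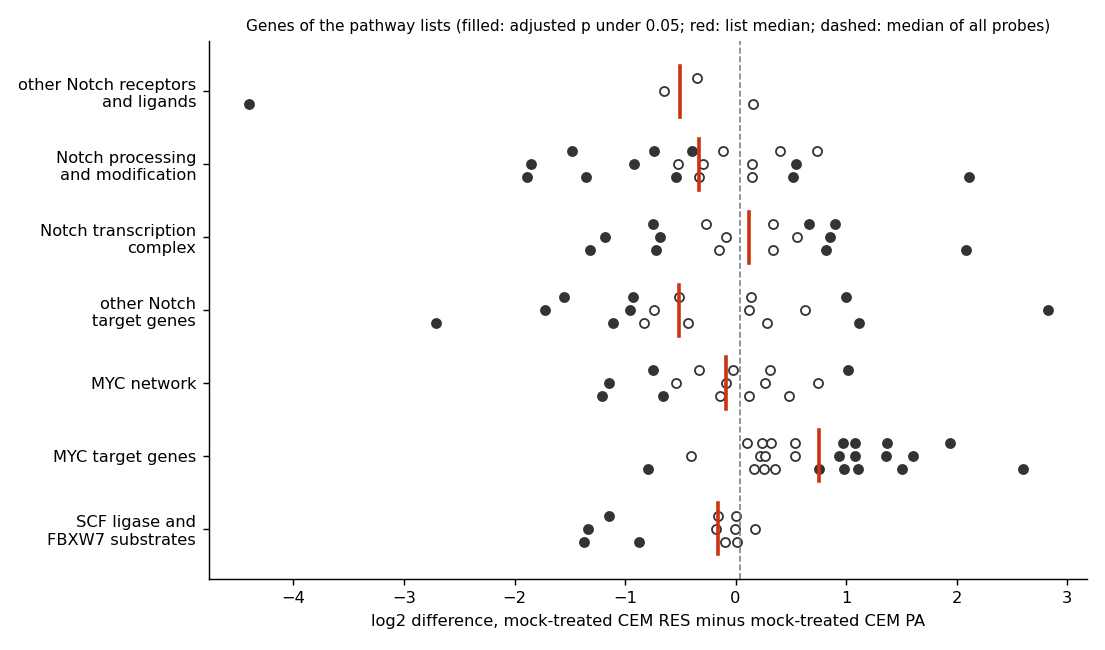
Log2 difference between mock-treated CEM RES and CEM PA (horizontal axis) for the genes of each list, 1 point a gene; filled points have an adjusted p under 0.05, red lines are list medians and the dashed line is the median of all probes. MYC target genes lie mostly to the right of the dashed line, and the Notch lists spread to both sides.

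No gene of these lists passed the adjusted threshold for FK866 in CEM PA or in CEM RES. Under FK866 the count of lower SCF and substrate genes in CEM RES was again 4, and fell to 1 and 2 without FK866-treated CEM PA replicate 1 or 2.

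Over the 13 arrays the probes most like MYC among 17265 candidates of other named genes were LYAR (Pearson r = 0.978), GPATCH4 (r = 0.977) and UFSP1 (r = 0.976). Those most like the coding NOTCH1 probe were ABCF1 (r = 0.856), ZNF496 (r = 0.846) and PLK1 (r = 0.839). These correlations hold the difference between the lines within them and are a description.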

How the data were processed

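Total RNA of CEM PA and CEM RES was labelled with Cy3 and hybridized to 13 1-colour arrays. The authors deposited spot intensities from Agilent Feature Extraction 10.7.7.1 (per the submitters' processing notes), background-corrected within the array, and a table of log2 values normalized by the authors, used here as an alternative. It ranked probes as the intensities do (Spearman correlation of at least 0.9999), and the median of each of its columns was 5.37.

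The processed intensities were put on the log2 scale. Outlier spots were set to missing, control spots removed, arrays quantile normalized together and spots of a probe averaged with limma 3.58.1 in R 4.3.3. Each of 22751 kept probes was tested separately in a 4-group limma model (9 residual degrees of freedom, prior 3.25), two-sided, with Benjamini-Hochberg adjustment. The 95% intervals use the same model and are not adjusted. Replicate numbers were checked by correlating deviations from group means over probes. Equal numbers gave 0.199 to 0.474 between mock and FK866 arrays in CEM RES, and 0.460 and 0.353 in CEM PA. With 2 FK866 arrays in CEM PA their deviations mirror each other, so the 2 values are not separate checks. FK866 replicate 2 of CEM PA also gave 0.259 with mock replicate 3, which was scanned in the same session. The labels do not say that equal numbers were paired. The procedure was tested on simulated data with independent noise and known added shifts. The simulation held no slide, session or replicate effects, so it cannot show how calls depend on them. Members, lists and tests were chosen with earlier results of these data known. Named are all members, up to 6 called genes of each list with the largest differences between mock-treated lines, and 3 probes most like NOTCH1 and MYC. NOTCH2, NOTCH4, DLL1, MAX, TERT, MXI1, MYCL1, MAML1, SPEN, TLE4 and BCL2 were added after their values were seen. The comparison of MYC with HES4 was not planned. Probe sequences come from the array files. Intensities were read with Python 3.11.15 and pandas 2.3.3.

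Other settings tried were 75th percentile scaling, normexp (offset 50), the deposited table, no filter or a filter on all arrays, outlier spots kept, 1 probe or the mean of probes per gene, only the groups compared, replicate number, slide or scan session as a block, array weights, an intensity trend, and the removal of single arrays, after which a group's lone array was assumed to vary like the others.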

Additional observations from a re-analysis of the deposited data

Results flagged for a closer look

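Of 26 groups of 4 arrays over the 13 probes, 1 had an array that stood apart by Dixon's test, where chance marks about 1 in 20. It was the coding NRARP probe in mock-treated CEM RES, where replicate 1 was apart from the others by 0.898 of the range. None of these signals was well above background, so no level is read from them. No member's response to FK866 differed between the lines after adjustment.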

How the results depend on the processing

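Of 1195 member values recomputed, 1166 kept their direction and their side of the threshold, and 55 of 756 list counts moved by over 1.5 times. The number of called member probes between mock-treated lines was 7 and lay between 5 and 8 under all alternatives. Under FK866 it was 4, or 2 with a filter on all arrays, which tests fewer probes. The 75th percentile scaling moved the median difference of all probes between mock-treated lines from 0.04 to 0.17. It moved the share of higher among called probes from 72.7% to 62.4% for FK866 in CEM PA, and from 6.38% to 18.1% for the difference in response.

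Probes called for FK866 in CEM PA numbered 348, and 580 with normexp, 191 without a filter, 90 with 1 probe per gene, 43 with the mean of probes, 3 with only the groups compared, 1218 with the replicate block, 7 with slide as a block and 1257 with array weights, or 47 to 384 with an array left out. Past the double threshold there were 1523, and 617 with normexp, 962 with 1 probe and 952 with the mean of probes. In CEM RES that number was 295, and 37 with normexp, 643 without a filter, 98 with a filter on all arrays and 188 with array weights, or 152 to 629 with an array left out, while 0 to 3 were then called by adjusted p. For the difference in response it was 94, and 186 with normexp, 56 without a filter, 23 with 1 probe, 7 with the mean of probes, 486 with the replicate block, 9 with slide as a block and 287 with array weights, or 27 to 140 with an array left out. Leaving out an array gave 4094 to 8682 called probes between the FK866-treated lines. The cause was not tested.

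NOTCH3 between mock-treated lines was not called with array weights (-1.23, adjusted p = 0.0655). The 3′ NOTCH1 probe was called between mock-treated lines with the deposited table (-0.78, adjusted p = 0.0449), without CEM PA mock replicate 2 (-0.86), without CEM RES mock replicate 2 (-0.84) and without FK866-treated CEM RES replicate 2 (-0.69), and the coding probe with normexp (0.34, adjusted p = 0.0205) and array weights (0.34, adjusted p = 0.0442). Signs turned only for values not called. HES4 for FK866 in CEM RES was -0.0086 with normexp, -0.045 with array weights and between -0.18 and 0.26 with an array left out. With array weights the 3′ NOTCH1 probe was 0.098 for FK866 in CEM PA and -0.049 for the difference in response, and PTCRA was 0.014 there. NOTCH3 between FK866-treated lines was -0.37 with the replicate block. HES1 with slide as a block was -0.34 for FK866 in CEM PA and 0.17 for the difference in response. The mean of probes turned the coding NOTCH1 probe to -0.19 between mock-treated lines. With an array left out, MYC for FK866 in CEM RES was between -0.13 and 0.29, and the 3′ NOTCH1 probe between -0.13 and 0.20 there, between -0.24 and 0.23 in CEM PA and between -0.18 and 0.30 for the difference in response. The block changed no call of a member. Signal over background limits HES1, NRARP and PTCRA, and no level of HEY1 or DTX1 can be compared.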
